A study of Bos taurus with 8 samples.

Results

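The major histocompatibility complex (MHC) class II genes were followed across an array study of cultured bovine retinal glia exposed to HIV-1 proteins. The set held 9 genes of the 31909 gene names on the array: the chain genes BOLA-DRA, BOLA-DQA1, BOLA-DQA2, BOLA-DQB and BOLA-DQB1, the peptide-loading regulators BOLA-DMB and BOLA-DOA, the invariant chain CD74, and the class II transactivator CIITA. They were taken by gene name, with all of their probes. Of the 28 probes, 21 carried the names of 6 of the genes. The other 7, for BOLA-DQB1, BOLA-DMB and BOLA-DOA, stood under other names in the files and were matched through the bovine reference gene table, 6 by accession and 1 by synonym.

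Primary Müller glia from bovine eyes, kept in culture for 18 to 21 days, were treated with recombinant HIV-1 TAT at 100 ng/ml (3 arrays) or recombinant HIV-1 gp120 at 60 ng/ml (3 arrays), or served as controls (2 arrays), each with expression read at 24 h. The label texts of all samples, controls included, name both proteins together, and the groups follow the sample titles; the extraction text speaks of astrocytes. Replicates carry the letters A, B and C, and no control has the letter C. Nothing in the labels ties a letter to its own culture or animal, so the p-values reflect the spread among these arrays alone, which may be technical. Each sample had its own 1-colour Agilent bovine array, and the 8 arrays share 1 slide. A level below is the log2 signal minus the 75th percentile of that array's probes, so a level of 0 is a probe at that percentile.

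MHC class II molecules are pairs of an alpha and a beta chain that carry peptides from endosomes to the cell surface and show them to CD4+ T cells. The invariant chain holds the new pair and guides it to endosomes, DM exchanges the invariant chain remnant for peptide, and DO restrains DM. CIITA is the co-activator that class II transcription depends on, and interferon gamma is its classical inducer in cells other than professional antigen-presenting cells. In the retina, microglia are the resident cells best known for class II expression. Cattle express DR and DQ but no DP, and their DQ genes are highly polymorphic and differ in number between haplotypes.

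Because of that polymorphism, the probes themselves matter for what a DQ level means. A probe reports RNA that matches its sequence, so a low signal and a differing transcript cannot be told apart on an array. The probe sequences below are those on which the DQ results turn. The first pair are both named BOLA-DQA1 and lie on the same stretch of transcript, with 33 shared positions of which 30 are identical; capitals mark the 3 differences, which are C34T, C48T and A55G, counted from the 5′ end of A_73_P052576 with its base first.
BOLA-DQA1 A_73_P052576: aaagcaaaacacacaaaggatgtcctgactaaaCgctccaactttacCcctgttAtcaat
BOLA-DQA1 A_73_P235072: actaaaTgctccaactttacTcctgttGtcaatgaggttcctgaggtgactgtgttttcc

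The next pair set the BOLA-DQA1 probe with the widest range over arrays beside a probe of BOLA-DQA3, another DQ alpha gene. They overlap by 51 bases, of which 49 are identical. The first 30 bases of that overlap hold both differences, T16C and A29G, counted from the 5′ end of A_73_P036601 and again in capitals. The file also lists transcripts of both genes for A_73_P036601.
BOLA-DQA1 A_73_P036601: tctagtgaccctgatTccatgtcaccacAg
BOLA-DQA3 A_73_P245461: tctagtgaccctgatCccatgtcaccacGg

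The DQ beta genes gave a similar case. A probe of BOLA-DQB and a probe of BOLA-DQB1 overlap by 41 bases with 37 identical. The differences T18A, T24C, T27G and C33G, in capitals, are counted from the 5′ end of A_73_P052096. The first 30 bases of A_73_105688, a BOLA-DQB probe that gave signal for some letters only, are shown beside them without capitals.
BOLA-DQB A_73_P052096: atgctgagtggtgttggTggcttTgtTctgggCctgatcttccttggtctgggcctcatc
BOLA-DQB1 A_73_P031816: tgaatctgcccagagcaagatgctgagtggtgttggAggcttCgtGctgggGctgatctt
BOLA-DQB A_73_105688: tccagagcagactgtgggagagaagcacat

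In the build of the files, HGSC Btau_3.1, the class II loci form 2 groups on chromosome 23. BOLA-DMB has probes at chr23:7454520-7454977, chr23:7458483-7458542 and chr23:7460324-7460383, and BOLA-DOA has its probe at chr23:7592702-7592761, all on the minus strand. BOLA-DRA lies on the minus strand with probes at chr23:26439544-26439586, chr23:26439677-26439736 and chr23:26441386-26441877. The BOLA-DQB probes lie on the plus strand at chr23:26223883-26223942, chr23:26226768-26226827 and chr23:26226966-26227025. CD74 lies on chromosome 7, where the probe A_73_P106626 takes up chr7:61217142-61218860, a span of 1719 bases for 60 bases of probe. CIITA lies on the plus strand of chromosome 25, with probes at chr25:10631770-10631829 and chr25:10644676-10644735. No position was given in the files for 5 member probes, and another lies on an unplaced contig. No exon annotation of this build was used, so exons and untranslated regions are not assigned.

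All 9 genes gave signal. Of the 28 probes, 25 passed the filter, which asks that all arrays of some group show the probe well above background, and 22 were well above background on all 8 arrays. The 3 others that passed did so through 1 group alone: the BOLA-DQB probes A_73_105688 and A_73_P336561 through Control, the group with no letter C array, and the CIITA probe A_73_P112256 through TAT. The 3 that did not pass were the BOLA-DQA1 probe A_73_P036601, a BOLA-DMB probe near the 5′ end of its transcript (A_73_P185692, 3 arrays well above background) and a second CIITA probe (A_73_P281321, 0 arrays). Saturated spots numbered 0 on every array, and 55.46% to 64.62% of spots per array were well above background. The scan of Gp120 B and Gp120 C used a detector voltage of 471.164, against 430.754 for the other 6 arrays, and slide row 1 held TAT A, Gp120 A, Control A and Control B.

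The DR alpha chain, which pairs with DR beta in the main class II molecule of most cells, is described first. BOLA-DRA (brightest probe, A_73_107479) had levels of 4.66, 5.29 and 4.74 on the TAT A, B and C arrays, 5.60, 3.85 and 5.35 on the Gp120 A, B and C arrays, and 4.41 and 4.13 on the Control A and B arrays. The 3 TAT arrays were above both controls, whereas Gp120 B was the lowest of all 8. TAT minus Control was 0.63 (SE 0.51) and Gp120 minus Control 0.66 (SE 0.51), with limma adjusted p = 1 and 0.965, so neither exceeded the spread between arrays. The other BOLA-DRA probes gave differences of 0.35 and 0.89 for TAT and of 0.14 and 1.37 for Gp120. The last of these, at A_73_P438206 (SE 0.62), had the lowest unadjusted p among the members in that comparison, 0.0603 by limma.

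For the DQ alpha chain BOLA-DQA1, the brightest probe A_73_P118256 stood at 1.67, 2.45 and 1.13 on TAT A, B and C, at 2.37, 0.30 and 2.02 on Gp120 A, B and C, and at 1.60 and 0.95 on Control A and B. Its groups overlapped, with differences from Control of 0.48 (SE 0.64) for TAT and 0.29 (SE 0.64) for Gp120. Another probe, A_73_111307, kept both treated groups above both controls. It read -2.26, -1.04 and -2.08 with TAT, -1.43, -2.89 and -0.96 with Gp120, and -2.91 and -3.00 in Control. Its TAT difference of 1.16 (SE 0.59) had the lowest unadjusted limma p of the members in that comparison, 0.0827, and an adjusted p of 1. For BOLA-DQA2, a second DQ alpha gene, A_73_P106611 read -0.53, 2.74 and 1.63 on TAT A, B and C, 0.49, 0.15 and 2.47 on Gp120 A, B and C, and 0.33 and 1.28 on Control A and B. Both its lowest and its highest array were TAT arrays.

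For the DQ beta chains, BOLA-DQB at its brightest probe A_73_P052096 read 1.64, 2.24 and 1.30 on TAT A, B and C, 2.39, 0.68 and 2.36 on Gp120 A, B and C, and 2.0 and 0.73 on Control A and B. BOLA-DQB1 at A_73_P031816 read 2.66, 3.36 and 2.68 with TAT, 3.48, 1.64 and 3.58 with Gp120, and 2.70 and 2.06 in Control. In both genes the Gp120 arrays spanned nearly the whole range, with Gp120 B lowest and Gp120 A or C highest. The BOLA-DQB1 differences from Control were 0.51 (SE 0.59) for TAT and 0.52 (SE 0.59) for Gp120.

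Among the genes of loading and regulation, BOLA-DMB, the beta chain of DM, averaged 1.08 ± 0.58 in TAT, 1.52 ± 0.99 in Gp120 and 0.43 ± 0.46 in Control cultures (SD, n = 3, 3 and 2) at A_73_P039926. Its arrays read 0.52, 1.03 and 1.67 with TAT, 1.63, 0.48 and 2.45 with Gp120, and 0.75 and 0.10 in Control, and the groups overlapped. BOLA-DOA, the alpha chain of DO, was well above background on all 8 arrays, at -4.74, -3.45 and -3.44 with TAT, -3.77, -3.80 and -3.64 with Gp120, and -3.84 and -3.93 in Control. Its TAT difference from Control was the smallest of the 25 probes, 0.01 (SE 0.40), with a 95% interval of -0.90 to 0.92.

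CD74, the invariant chain, had 5 probes. At A_73_P103191 it read -0.47, 1.59 and 0.59 on TAT A, B and C, 0.96, -1.57 and 1.14 on Gp120 A, B and C, and -0.36 and -0.33 on Control A and B. The 2 controls had an SD of 0.02, while the treated arrays lay on both sides of them. An overlapping probe, A_73_116755, which shares 46 identical bases with it, gave TAT minus Control as 1.12 (SE 0.80), against 0.91 (SE 0.86) at A_73_P103191. Over the 5 probes, differences were 0.24 to 1.21 for TAT and 0.10 to 0.89 for Gp120, none past the adjusted threshold.

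CIITA was measured by 1 probe close to background. A_73_P112256 read -3.68, -4.93 and -4.35 on TAT A, B and C, -2.27, -5.91 and -3.10 on Gp120 A, B and C, and -3.36 and -5.65 on Control A and B. On Gp120 B and Control B it was not well above background. The differences from Control were 0.19 (SE 1.08) for TAT and 0.75 (SE 1.08) for Gp120.

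**Figure D1:**
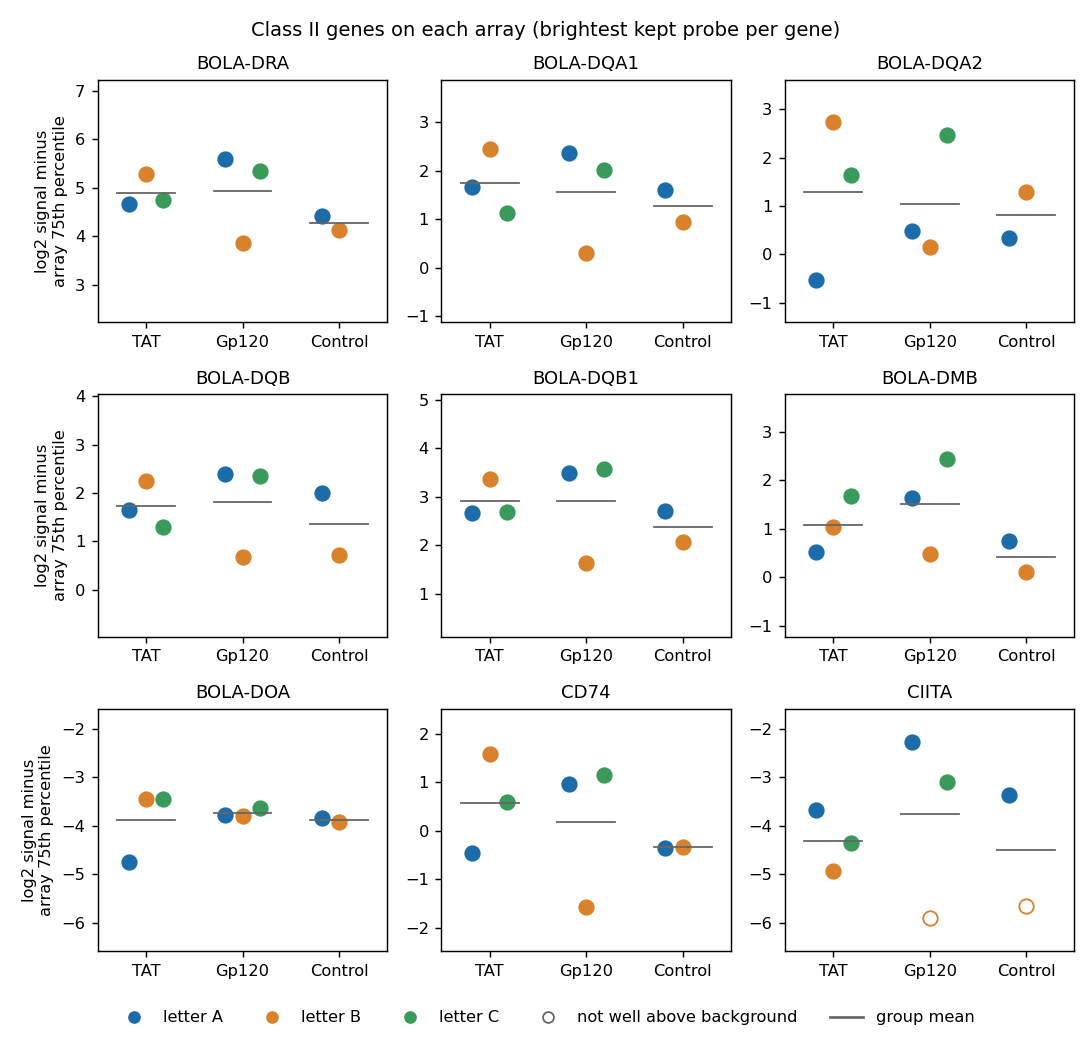
Level of each class II gene on each array (vertical axis, log2 signal minus the array's 75th percentile; each panel spans the same number of log2 units) at its brightest kept probe, by group (horizontal axis) and replicate letter (colour). Grey lines are group means and open points are not well above background; Gp120 B is the lowest Gp120 array in all panels, and the groups overlap in all panels but that of BOLA-DOA for Gp120 and that of BOLA-DRA for TAT against Control.

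Over all probes, neither protein gave a difference from Control that passed. With limma on 31546 probes, 0 passed an adjusted p of 0.05 for TAT minus Control, Gp120 minus Control or TAT minus Gp120 (0% called in each), and at an unadjusted p under 0.05 there were 431, 1334 and 1246 probes. Of the 25 class II probes, 0 passed in each comparison and 0 had an unadjusted p under 0.05. The class II probes were nevertheless mostly above Control in both treated groups. TAT minus Control was above 0 at 23 of 25 probes with a median of 0.65, against 47% of all probes and a median of -0.02. Gp120 minus Control was above 0 at 23 of 25 with a median of 0.70, against 50.5% and 0. These comparisons share the 2 controls, and probes of 1 gene are not independent. TAT minus Gp120 was above 0 at 12 of 25 probes with a median of 0, against 45.6% and -0.03.

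The 2 probes below 0 in both comparisons were A_73_105688 and A_73_P336561 of BOLA-DQB, at -1.76 and -1.29 (SE 2.91 and 2.81) for TAT and -1.86 and -1.54 for Gp120. With the replicate letters as a block they stood at 0.61 and 0.85 for TAT and at 0.51 and 0.60 for Gp120, since both are near background on the letter C arrays, which no control matches. All TAT arrays were above both controls at 7 of 25 class II probes (5.59% of all probes) and below at 0 (8.51%). All Gp120 arrays were above both controls at 3 of 25 (7.99%) and below at 0 (7.61%). TAT arrays were all above Gp120 arrays at 0 of 25 (3.34% of all probes) and all below at 0 (4.56%). The 7 probes for TAT belonged to BOLA-DRA, BOLA-DQA1, BOLA-DQB1 and CD74.

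**Figure D2:**
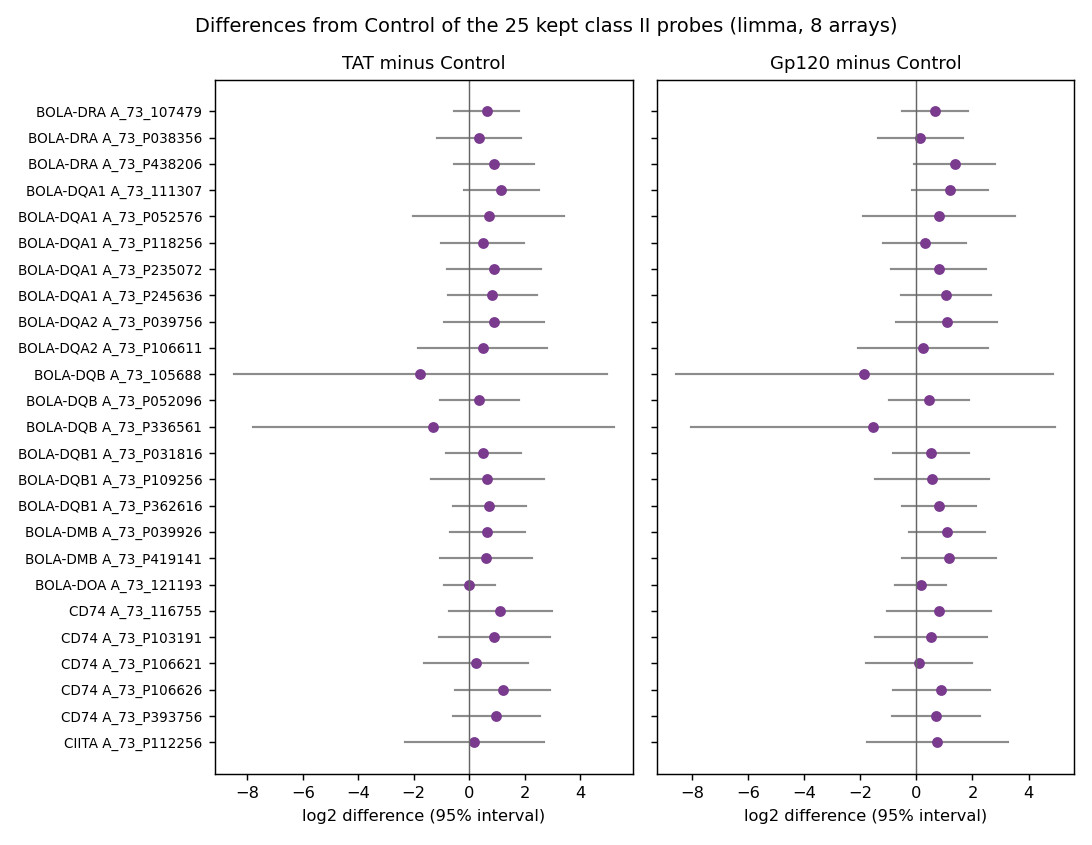
Differences from Control on the log2 scale (horizontal axes) for the 25 class II probes that passed the filter, TAT on the left and Gp120 on the right, with 95% intervals from limma over 8 arrays. All intervals include 0; 23 of 25 points lie above 0 in each panel, and the 2 wide intervals belong to the BOLA-DQB probes with no signal on letter C arrays.

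Same-letter differences from Control turned with the letter. TAT B minus Control B was above 0 at all 25 probes, from 0.48 to 2.54 with a median of 1.52. TAT A minus Control A was above 0 at 10 of 25, with a median of -0.11. Gp120 A minus Control A was above 0 at 24 of 25 probes with a median of 0.92, and Gp120 B minus Control B at 9 of 25 with a median of -0.16. Across all probes the same-letter medians were between -0.05 and 0.02. Each such pair is 1 array against 1 array, with no replicate check. Letter C has no such pair but enters the group values: the Gp120 minus Control median of 0.70 was 0.36 without Gp120 A, 1.31 without Gp120 B and 0.39 without Gp120 C, and the TAT minus Control median of 0.65 was 0.38 without TAT B.

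Between the proteins, same-letter differences also turned with the letter. TAT minus Gp120 was below 0 at all 25 probes for letter A (median -1.02), above 0 at all 25 for letter B (median 1.93), and below 0 at 24 of 25 for letter C (median -0.78). CD74 shows this at A_73_P103191, where Gp120 B had the lowest level of all arrays and TAT B the highest. Gp120 B and Gp120 C, which shared a scan, had the lowest and the highest class II mean of all arrays. The part of scan, slide row or cell makeup in these differences was not tested.

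**Figure D3:**
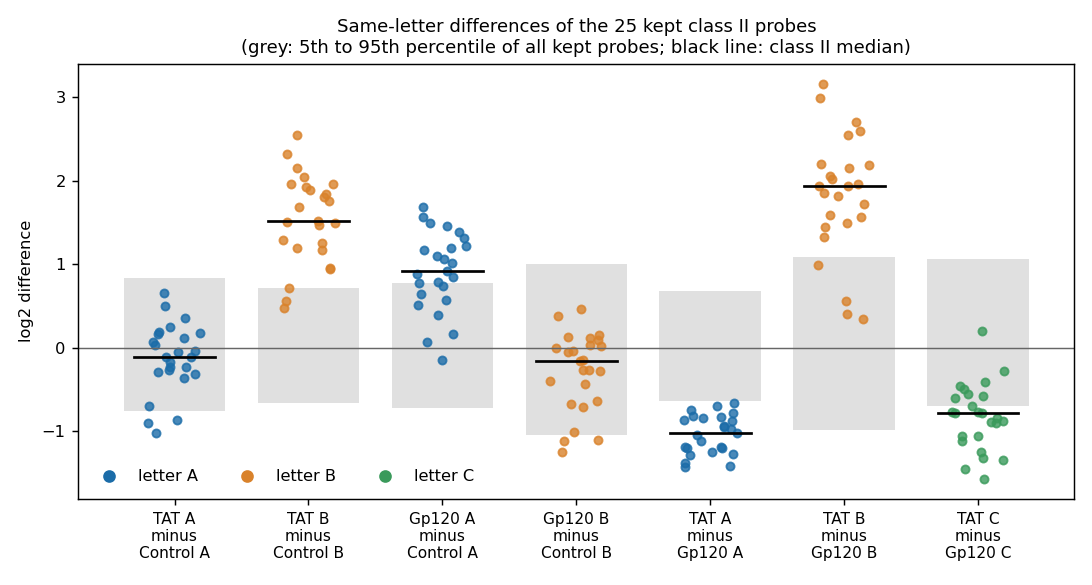
Log2 differences (vertical axis) of the 25 kept class II probes in each of the 7 same-letter pairs of arrays (horizontal axis), coloured by letter. Black lines are class II medians and grey boxes run from the 5th to the 95th percentile of all 31546 probes; the points lie mostly above the box for TAT B minus Control B (median 1.52) and TAT B minus Gp120 B (median 1.93), and all below 0 for TAT A minus Gp120 A.

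Part of the class II genes varied closely together from array to array. The mean of the 9 genes, each centred over the 8 arrays at its brightest kept probe, was -0.38, 0.58 and 0.09 for TAT A, B and C, 0.64, -1.03 and 0.84 for Gp120 A, B and C, and -0.10 and -0.64 for Control A and B. Gp120 B was lowest and Gp120 C highest, so the widest spread lay within the Gp120 group. Over the 36 pairs of genes, Pearson's r across the 8 arrays had a median of 0.70 and ran from -0.11 to 0.97, a description only, since the 8 arrays share 3 letters and 3 treatments. Of the 36 pairs, 17 had r above 0.7. The pairs with the highest r were BOLA-DRA with BOLA-DQB1 (0.97) and BOLA-DQB with BOLA-DQB1 (0.95). The BOLA-DQB and BOLA-DQB1 probes used here overlap by 41 bases with 37 identical. Signal of both from the same RNA cannot be told apart from 2 genes varying together. BOLA-DOA and BOLA-DQA2 stood apart from CIITA, with r of -0.11 and -0.10, and were less tied to other chain genes. BOLA-DOA had r of 0.11 with BOLA-DQA1, 0.17 with BOLA-DQB, 0.27 with BOLA-DQB1 and 0.28 with BOLA-DRA. BOLA-DQA2 had 0.32 with BOLA-DQB and 0.38 with BOLA-DQA1, but 0.75 with both BOLA-DOA and CD74. CIITA had r of 0.72 with BOLA-DRA and 0.47 with CD74.

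Genes with the same array pattern were sought among 3015 named genes outside the set with an SD over arrays of at least 0.5. The most alike was CFD, the serine protease complement factor D, with r of 0.97 over the 8 arrays. It read 1.87, 3.48 and 2.87 on TAT A, B and C, 3.09, 1.35 and 3.57 on Gp120 A, B and C, and 2.56 and 2.02 on Control A and B. FGL2, a fibrinogen-like protein of immune cells, and MPEG1, a pore-forming protein of macrophages, each had r of 0.94. DSB, listed here with the other class II genes, had 0.91, as had PDK4, a kinase that inhibits pyruvate dehydrogenase. The transporter ABCC3, the carbonic anhydrase CA9 and the ribonuclease RNASE6 had 0.90. The 4 least alike were SYNPO (-0.83), MICAL3 (-0.81), STRA6 (-0.81) and CLEC18C (-0.80). The r values are a description and carry no p.

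**Figure D4:**
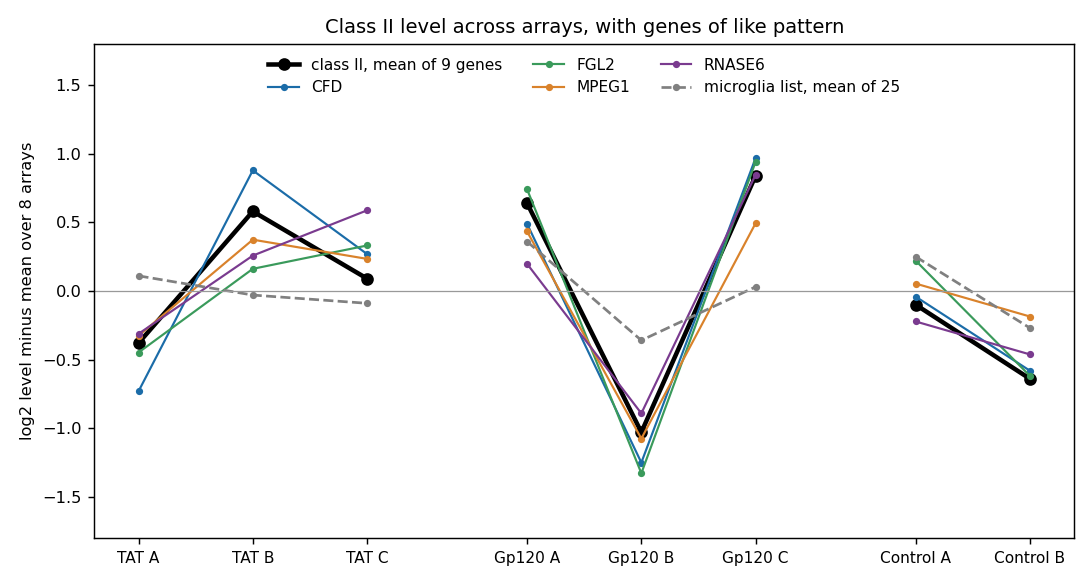
Log2 level minus the mean over the 8 arrays (vertical axis) for the mean of the 9 class II genes (black), for CFD, FGL2, MPEG1 and RNASE6, and for the mean of 25 microglia and macrophage markers (dashed), on each array (horizontal axis). The class II mean is lowest on Gp120 B (-1.03) and highest on Gp120 C (0.84); the dashed line spans less.

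Markers of cells known for class II were measured on the same arrays. All 25 microglia and macrophage markers passed the filter, and 24 were well above background on all 8 arrays (CX3CR1 on 7). Their mean level ran from 3.98 to 4.18 over TAT arrays, from 3.71 to 4.43 over Gp120 arrays and from 3.80 to 4.32 over Control arrays, and its r with the class II mean was 0.62. Of the 25 markers, 12 were above Control with TAT and 11 with Gp120, with medians of -0.01 and -0.07, and 0 passed. In bulk RNA, fewer cells of a type and less RNA per cell cannot be told apart. Of the Müller glia markers, 9 of 15 on the array passed the filter, with a mean level of 4.34 to 4.72 with TAT, 4.48 to 4.79 with Gp120 and 4.44 to 4.70 in Control (r of -0.04 with class II). The 9 were GLUL, VIM, SLC1A3, AQP4, CRYAB, S100B, DKK3, CLU and APOE, each well above background on all 8 arrays. Of the other 6, RLBP1 and GFAP were well above background on at most 2 arrays, KCNJ10 on 1, and CA14, RGR and DIO2 on 0.

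Dendritic and B cell markers were mostly dim or at background. Of 13 on the array 6 passed the filter, with XCR1, CLEC9A, ZBTB46, CCR7 and BLK well above background on 0 arrays, and the mean of the 6 ran from -1.95 to -1.70 with TAT, -2.08 to -1.64 with Gp120 and -1.71 to -1.55 in Control (r of 0.60). Of 11 T and NK cell markers 6 passed. CD3D, CD2, CD4, CD247 and NKG7 were well above background on all 8 arrays, and CD8A on 6. CD3E and CD3G were at 0 arrays, CD8B and GNLY at 1 at most, and LCK at 4 at most. The mean of the 6 ran from -0.02 to 1.18 with TAT, 0.48 to 1.43 with Gp120 and 0.72 to 1.22 in Control (r of -0.03). Of the endothelial markers 7 of 10 passed (CDH5 at 0 arrays), of pigment epithelium 5 of 8 (TYRP1 at 0), of retinal neurons 4 of 10 and of fibroblasts and mural cells 11 of 12. Of those 11, 11 were above Control with TAT (median 0.62) and 11 with Gp120 (median 0.33), with 0 called. The part of cell makeup in the class II differences was not tested.

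Apart from the other class II genes, lists of the pathway had medians closer to 0 against Control than the class II set. Of 9 measured promoter factors, which bind the conserved class II promoter boxes or work with CIITA, 2 were above Control with TAT and 4 with Gp120, with medians of -0.06 and -0.02 and 0 called. The RFX subunits stayed close to Control: RFX5 at -0.32 and -0.19, RFXAP at -0.05 and 0.12, RFXANK at 0.04 and -0.03 (SE 0.23 each) for TAT and Gp120. CCNT1, a partner of TAT in transcription elongation, was well above background on at most 4 arrays. In the interferon gamma pathway 4 of 12 genes were above Control with TAT and 5 with Gp120, with medians of -0.10 and -0.35, and IFNG itself was well above background on 0 arrays. Of 9 genes listed for class II peptide processing, 8 were above Control with TAT and 8 with Gp120, with medians of 0.09 and 0.20. CTSS, the cathepsin that trims the invariant chain, was 0.19 and 0.13 above Control (SE 0.25 each). The largest differences of that list were at CTSL, another cathepsin, at 3.01 and 3.47 above (SE 1.94 each). Its Gp120 A array, at -5.13, was below both controls (-4.38 and -5.03). Of 3 other class II genes that passed, 2 were above Control in both; BOLA-DRB3, the main DR beta chain of cattle, was 0.86 and 0.75 above (SE 0.67 each). In all of these lists 0 genes were called for either protein.

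Replicate letters, unlike treatments, separated probes across the array. With the group in the fit, 4047 of 31546 probes differed between letters past a limma adjusted p of 0.05 (12.8% called). Of the 25 class II probes 4 were called, a share near that background. They were the BOLA-DQB probes A_73_105688 (adjusted p = 0.00219) and A_73_P336561 (adjusted p = 0.00267), the CIITA probe A_73_P112256 (adjusted p = 0.0398) and the BOLA-DMB probe A_73_P419141 (adjusted p = 0.0464). The BOLA-DQB probes passed the filter only through Control, which has no letter C array, so their calls are a description. Letter B minus letter A was called at 3 of 25 (11.2% of all probes) and letter C minus letter A at 2 (13.5%). With slide row as a block 178 probes remained past the threshold and 1 of the class II probes. Letter A arrays all lie in row 1 and letter C arrays all in row 2, so row and letter are largely confounded.

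CIITA was lower on letter B arrays than on letter A arrays by limma, with a log2 difference of -2.40 (SE 0.46, adjusted p = 0.0257). The A arrays read -3.68, -2.27 and -3.36 and the B arrays -4.93, -5.91 and -5.65, with no overlap, in the order TAT, Gp120 and Control. Gp120 B and Control B were not well above background, so the size of the difference rests partly on background signal. The B minus A call held in 9 of 16 alternatives (limma adjusted p from 0.024 to 0.27). It was lost with slide row (adjusted p = 0.27) or scan (adjusted p = 0.0911) as a block. It was also lost in a deposited table of log2 values (adjusted p = 0.266) and with no filter on dim probes (adjusted p = 0.0542). The same held without Gp120 A (-2.03, adjusted p = 0.0911) and without either control (-2.45, adjusted p = 0.0955). After normexp background correction the difference was -0.57. Letter C minus letter A was -0.72 (SE 0.53, adjusted p = 0.393). BOLA-DRA did not differ between letters past the threshold (B minus A -0.47, SE 0.44, adjusted p = 0.532; C minus A -0.04, SE 0.52, adjusted p = 0.967). BOLA-DMB at A_73_P419141 read -1.42, -0.18 and -1.19 on the A arrays, -1.24, -1.65 and -1.81 on the B arrays, and 0.00 and 0.87 on TAT C and Gp120 C. Neither of its letter contrasts passed alone, at -0.64 (SE 0.32, adjusted p = 0.235) for B minus A and 1.24 (SE 0.37, adjusted p = 0.0743) for C minus A.

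Within the DQ genes, 3 probes gave signal for some letters and none for others. The BOLA-DQA1 probe A_73_P036601 read -0.34, 0.61 and 0.42 on TAT A, Gp120 A and Control A. It was not well above background on any of the other 5 arrays, which read -7.81 to -6.42. The A arrays were thus at least 134-fold brighter, taking the dim arrays at their lowest signal well above background or the probe's own signal, whichever is higher. The probe passes only a filter by group or letter, added after the data were seen, which called 13.8% of probes and 5 of 26 class II probes between letters, and there B minus A had an adjusted p of 0.000397. That filter chose it for this pattern, so the values are a description.

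The BOLA-DQB probe A_73_105688 read 0.54, 1.36 and 0.72 on TAT A, Gp120 A and Control A, -0.66, -2.25 and -2.34 on TAT B, Gp120 B and Control B, and -7.60 and -7.11 on TAT C and Gp120 C. Letter B minus letter A was -2.62 (SE 0.46, adjusted p = 0.0211), and the A and B arrays together were at least 70.3-fold brighter than the C arrays. A_73_P336561, further along the same transcript, read 0.60, 1.26 and 0.41 on the A arrays, -1.40, -3.22 and -3.24 on the B arrays and -7.33 and -6.92 on the C arrays, at least 49.9-fold brighter in A and B together. The B minus A call of A_73_105688 was lost without Gp120 A (-2.34, adjusted p = 0.0817), without Gp120 B (-2.11, adjusted p = 0.065) and without either control (-2.40, adjusted p = 0.0949), as well as with slide row (adjusted p = 0.178) or scan (adjusted p = 0.0817) as a block. That of A_73_P336561, -3.38 (SE 0.47, adjusted p = 0.0113), was lost without either control (-3.24, adjusted p = 0.0614) and with slide row as a block (adjusted p = 0.144). For C minus A both were called (adjusted p = 0.00116 and 0.00134), and of 14 alternatives only slide row as a block ended the call (adjusted p = 0.0556 and 0.0618). Both probes passed the filter only through Control, which has no letter C array, so these C minus A values are a description. Since neither was well above background on the C arrays, the sizes of these differences are given here as the bounds above. Bounds of this kind hold for the main processing and depend on how background is treated. After normexp background correction C minus A was -3.08 for A_73_105688 and -2.85 for A_73_P336561. The third BOLA-DQB probe, A_73_P052096, was well above background on every array. For that probe C minus A was -0.30 (SE 0.59, adjusted p = 0.756) and B minus A -0.79 (SE 0.50, adjusted p = 0.345), so the probes of 1 gene disagreed by letter.

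Such patterns were uncommon on the array. Of 51282 probes, 511 were well above background on every array of 1 or 2 letters and on none of the rest (0.996%), against 3 of the 28 class II probes. With a gap of over 4 log2 units between the lowest array with signal and the highest without, there were 25 on the array (0.0488%) and 2 among the 28. Beyond the set, the BOLA-DQA3 probe A_73_P245461, printed above, had signal for letter A alone (at least 380-fold), as did A_73_118124 of the same gene (at least 13.3-fold). BOLA-DQA5 probes A_73_P062199 and A_73_P031561 had signal for letters A and B alone (at least 99.2-fold and 28.7-fold). Having or lacking signal on all arrays of a letter is part of how these probes were picked, so it is not a result about treatment. Letter C has no Control array.

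**Figure D5:**
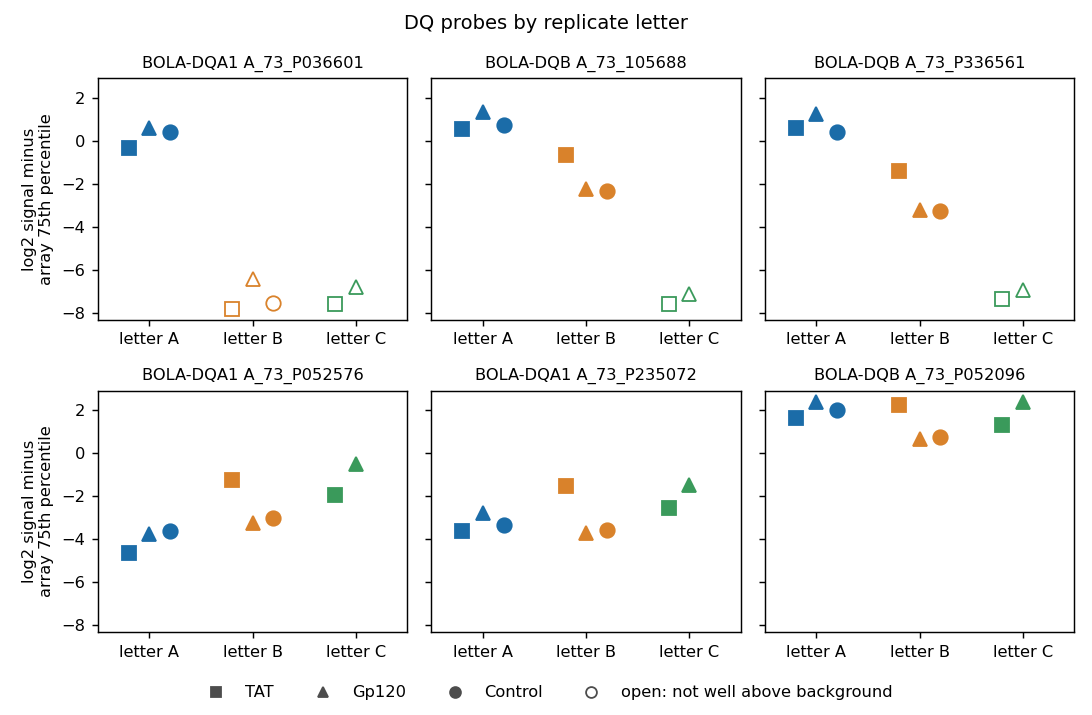
Level of 6 DQ probes (vertical axis, log2 signal minus the array's 75th percentile) by replicate letter (horizontal axis), with TAT, Gp120 and Control arrays as squares, triangles and circles. Open points are not well above background; A_73_P036601 has signal on letter A arrays alone, A_73_105688 and A_73_P336561 on letter A and B arrays alone, and the other 3 probes on all arrays.

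The pair of overlapping BOLA-DQA1 probes printed first is set side by side here; the difference between them was not tested. A_73_P052576 read -4.62, -3.75 and -3.60 on TAT A, Gp120 A and Control A, -1.25, -3.26 and -3.00 on TAT B, Gp120 B and Control B, and -1.94 and -0.49 on TAT C and Gp120 C. The letter A arrays were the 3 lowest, but C minus A, 2.74 (SE 0.78), did not pass (adjusted p = 0.0646). A_73_P235072 read -3.64, -2.79 and -3.35 on the A arrays, -1.54, -3.73 and -3.58 on the B arrays and -2.54 and -1.49 on the C arrays, with C minus A at 1.06 (SE 0.73, adjusted p = 0.359). Across the 5 kept BOLA-DQA1 probes, pairwise r over arrays ran from 0.25 to 0.96, and across the 3 of BOLA-DQB from 0.18 to 0.99. BOLA-DRA probes ran from 0.62 to 0.92 and CD74 probes from 0.61 to 0.99. Whether DQ sequence differs between the sources of the letters was not tested.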

How the data were processed

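The members and gene lists were chosen with earlier results of these data known. The deposited scanner files hold intensity values; per the file headers, Agilent Feature Extraction 11.5.1.1 subtracted background and detrended each array. A deposited table of log2 values per gene name, of unstated making, was an alternative. The processed signals were put on a log2 scale, each array's 75th percentile was subtracted, outlier-flagged and control spots were left out, and repeated spots were averaged. Groups and letters were tested by limma (3.58.1, under R 4.3.3; lmFit, eBayes, two-sided, Benjamini-Hochberg over 31546 probes, threshold 0.05), tested first on simulated data. Letters were tested as replicate numbers. Deviations from group means correlated at 0.323 to 0.703 over 7 same-letter pairs and at -0.592 to 0.403 over 14 others, so the ranges overlap. Between TAT and Gp120 arrays, same-letter pairs had r of 0.432 to 0.703 and the others -0.567 to -0.0698. Centred Control A and Control B mirror each other, so pairs with Control are not independent. Control B had r of 0.403 with TAT C and 0.323 with TAT B. With Gp120 C and Gp120 B it had 0.364 and 0.326. The centred arrays within TAT, and within Gp120, also sum to 0, so r of their other pairs is not independent of same-letter r. Same-letter pairs all had the higher r between TAT and Gp120 only, which is a description. Letter is largely confounded with slide row. Named genes were all member probes and the 8 most and 4 least alike genes. In each list the 3 genes with the largest letter B minus letter A difference were also named, not all of which are reported here. Further list members are named in the text because their role bears on class II, or to show which cell markers were or were not well above background. Probe overlaps were found without gaps (at least 20 bases, 80% identical). Figures used Python 3.11.15 and matplotlib 3.10.9. The number of arrays limits precision.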

Additional observations from a re-analysis of the deposited data

How the results depend on the processing

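Class II probes past the threshold stayed at 0 in each treatment comparison under all 20 or 21 alternatives, among them the replicate block, with which 0 probes passed in any comparison and class II medians were 0.53, 0.59 and 0 for TAT minus Control, Gp120 minus Control and TAT minus Gp120. Those medians ran from 0.27 (within slide row 1, where TAT has 1 array) to 0.93, from 0.36 (without Gp120 A) to 1.32 (scan as a block), and from -0.59 to 0.34. Over all probes, the deposited table gave 2 for Gp120 minus Control and 6 for TAT minus Gp120, and leaving out an array gave 0 to 2 for TAT minus Control and 0 to 1 for Gp120 minus Control. The 4047 probes called between letters became 1959 with no filter, 178 with slide row as a block, 1542 with scan as a block, 671 in the deposited table and 1018 (without Gp120 C) to 2447 (without Gp120 B) with 1 array left out. The 4 class II calls became 1 with the filter on all 8 arrays, with the row block and with the brightest probe per gene, 2 with the scan block, 0 in the deposited table and 2 to 10 with 1 array left out (10 without TAT B); 5 of 26 passed with the filter by group or letter (4473 of 32462 probes, 13.8%), added after the data were seen. Leaving out either control gives the same letter fit, and for the letter fit the scan block equals leaving out Gp120 A. For letter C minus letter A, A_73_105688 and A_73_P336561 each kept the call in 13 of 14 alternatives, not with slide row as a block. That count is a description, since both passed the filter only through Control, which has no letter C array. With normexp the differences, taken against background on letter C arrays, were -3.08 and -2.85. Letter medians also changed sign, from -1.17 (without TAT B) to 0.35 (without Gp120 B) for B minus A and from -0.48 to 0.74 for C minus A; the cause was not tested.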

Other observations

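Values of further gene groups between letters follow; 12.8% of all probes were called between letters, and shares near it are not results about a group. Genes named by their B minus A difference were picked on the value tested, so their adjusted p-values are a description. In the list of class II traffic and turnover, 13 genes passed the filter; 6 were above Control with TAT and 7 with Gp120 (medians -0.08 and 0.02), and 3 were called between letters. TMEM176A and TMEM176B, membrane proteins of antigen-presenting cells, were higher on letter B than on letter A arrays, TMEM176A with Gp120 A and Control A not well above background, by 3.22 (SE 0.44, limma adjusted p = 0.0105) and 2.58 (SE 0.32, adjusted p = 0.00783), and the tetraspanin CD82 was lower, at -1.13 (SE 0.17, adjusted p = 0.0138). Of 9 co-stimulation genes 3 were above Control with TAT and 4 with Gp120 (medians -0.10 and -0.17), and 2 were called between letters, among them PDCD1LG2, a ligand of the inhibitory receptor PD-1, at -2.34 (SE 0.37, adjusted p = 0.0152). CD40 and CD274 stood at -0.92 and -0.94 and did not pass (adjusted p = 0.0578 and 0.0644). Class I and peptide loading genes had 1 of 15 called, the trimming peptidase ERAP2 at -1.27 (SE 0.15, adjusted p = 0.00735), and their mean level had r of 0.65 with the class II mean over the 8 arrays. Against Control, 8 of the 15 were above with TAT and 13 with Gp120, with medians of 0.08 and 0.08 and 0 called.

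Of the microglia and macrophage markers, 4 of 25 were called between letters, a share near the 12.8% of all probes. LYZ, the antibacterial enzyme lysozyme, was lower on letter B arrays (B minus A -1.84, SE 0.23, adjusted p = 0.00877) and on letter C arrays (C minus A -4.10, SE 0.27, adjusted p = 0.00132) than on letter A arrays. CX3CR1 and FCGR3A stood at -1.81 and -1.48 for B minus A and did not pass (adjusted p = 0.157 and 0.0738). The T cell co-receptor gene CD8A was lower on letter B arrays (B minus A -2.63, SE 0.40, adjusted p = 0.0138) and was not well above background on TAT C and Gp120 C. RGS5, a regulator of G protein signalling in pericytes, was higher on letter B arrays by 3.03 (SE 0.35, adjusted p = 0.00663). GBP5, an interferon-induced GTPase, stood at -1.35 for B minus A (SE 0.34, adjusted p = 0.0528), and IRF1, a transcription factor of the interferon response, was lower at -1.06 (SE 0.23, adjusted p = 0.0372).

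Further genes named by the rule of largest letter B minus letter A difference were as follows, again as a description. Among T and NK cell genes the granule protein NKG7 was higher (1.51, SE 0.19, adjusted p = 0.00846) and the adhesion receptor CD2 lower (-0.99, SE 0.19, adjusted p = 0.0246). The complement receptor CR2 of B cells was lower (-1.86, SE 0.36, adjusted p = 0.0268), while FLT3 at 0.68 did not pass. Of the Müller glia list the small heat shock protein CRYAB was higher (1.51, SE 0.25, adjusted p = 0.018), and SLC1A3 at 0.67 and S100B at -0.55 did not pass. Of the endothelial list ESAM was higher (1.85, SE 0.20, adjusted p = 0.00583), EGFL7 lower (-1.34, SE 0.28, adjusted p = 0.0323), and KDR at 0.94 did not pass. The contractile protein TAGLN was higher (1.54, SE 0.20, adjusted p = 0.00916) and LUM at -1.34 did not pass. The proteasome subunit PSMB10 was lower (-0.98, SE 0.23, adjusted p = 0.0459), and PSMB9 at -0.80 did not pass. No B minus A difference passed for NFYB (-0.32), NFYC (0.53), CREBBP (-0.60), CTSL (1.67), CTSH (-0.35), IFI30 (-0.31), IRF2 (-0.64), TTR (0.90), MITF (-0.95), RDH5 (0.38), PRKCA (0.49), RBFOX3 (-0.96), SNAP25 (-1.38), BOLA-DRB3 (-1.03), DSB (-1.09) or BOLA-DQA5 (-1.42).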
